A study of Rattus norvegicus with 4 samples.

Results

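Calcium and sodium pumps are P-type ATPases, membrane proteins that use ATP to move ions against their gradients. The 8 pump genes described here are Atp2b1, Atp2b2 and Atp2b4 for plasma membrane calcium pumps, Atp2a2 and Atp2a3 for endoplasmic reticulum calcium pumps, Atp2c1 for the secretory pathway pump, and Atp1b1 and Atp1b3 for sodium pump beta subunits. They were found by symbol among the 32545 genes of the count table, and each symbol matched 1 gene. Atp2b4 was chosen by its rise in read count after siRNA treatment in these same libraries, and the set around it was assembled with results of these libraries known. The values of Atp2b4 are therefore a description with no test, and the calls on the other members are no independent evidence about the family.

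S16 is an immortalized rat Schwann cell line, so all libraries come from 1 line of cultured cells and not from nerve. The 2 groups were cells transfected with control siRNA (IDT DS NC1) and cells that received siRNAs for Nr2f1 and Nr2f2, with the same lipid reagent in both groups. Nr2f1 and Nr2f2 encode COUP-TFI and COUP-TFII, nuclear receptors that bind DNA and regulate transcription. Each group held 2 polyA RNA libraries, here called control or knockdown library A and B by column order (the figures write siRNA for knockdown), and the time between transfection and lysis is not given in the labels.

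Plasma membrane calcium pumps push calcium out of the cell and keep its resting level in the cytosol low. The pumps of the endoplasmic reticulum refill the store from which calcium is released during signalling, and the secretory pathway pumps load the Golgi with calcium and manganese. The sodium pump exchanges sodium for potassium. Its alpha subunit does the transport, and its beta subunit is needed for folding and for delivery to the membrane. Schwann cells show cytosolic calcium rises when ATP or other axonal signals reach them, and these pumps help to end such rises.

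Total counts were 26561522 and 21556011 in the control libraries, and 25618234 and 43057750 in the knockdown libraries. Both targets were lower in each knockdown library than in each control library. Nr2f1 was at 226 and 208 CPM (counts scaled for library depth with TMM factors) in control and 61.5 and 56.0 CPM after knockdown, and Nr2f2 at 296 and 282 against 68.1 and 72.7 CPM. Of 12 Schwann cell markers 11 were detected with at least 10 counts over the libraries, among them Sox10, and Gap43 was at 0. Sox10 was at 689.8 and 713.4 CPM in control and 760.0 and 686.4 CPM after knockdown. Of the 12 markers 1 passed the test over all genes in the higher direction, the myelin gene Pmp22 (log2 fold change 0.32), and 1 in the lower direction, the myelin gene Mag (-0.44). Ptprc, the gene of the pan-leukocyte protein CD45, and Actn2, Myog and Myod1 of muscle were at 0 in all libraries, as were Cdh5, Kdr and Cldn5 of endothelium and Rbfox3, Stmn2 and Elavl4 of neurons. Other members of these lists were present, among them the endothelial markers Vwf (7.60 CPM in control, 12.3 CPM after knockdown) and Tek (5.68 and 4.08 CPM) and the neuron marker Tubb3 (78.4 and 97.4 CPM), as group means. Dcn, Lum and Thy1 of the fibroblast list were at 0, while the whole list, mostly through the collagen gene Col1a1, summed to 13122 to 13531 CPM in control and 13342 to 13432 CPM after knockdown. Of its other members, the collagen gene Col3a1 was at 1516 CPM in control and 1738 CPM after knockdown, as group means. Postn was at 6.86 CPM in control and 16.1 CPM after knockdown, Pdgfrl at 24.4 and 17.2 CPM, and Pdgfra at 1.75 and 3.19 CPM, also as group means. Whether the libraries are from separate cultures is not stated in the labels, so the spread between them may be technical.

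Each pump type had 1 main gene in these cells. To compare genes with each other, counts were divided by gene length as well as scaled library size, which gives RPKM. In control libraries Atp1b3 was at 132.4 RPKM, Atp2a2 at 71.8, Atp2b1 at 28.7 and Atp2c1 at 24.3 RPKM. Atp1b1 followed at 0.970 RPKM, Atp2b4 at 0.708 RPKM and Atp2a3 at 0.0749 RPKM. Atp2b2 (ENSRNOG00000030269, chromosome 4 from 145703046 to 146016325 in the files), a pump gene known from neurons and hair cells, had 0 counts in all 4 libraries, and a count of 0 over them allows up to 0.0256 CPM. In knockdown libraries the order was the same except that Atp2b4, at 2.42 RPKM, stood above Atp1b1, at 0.864 RPKM. No 2 neighbours in either order overlapped between their libraries.

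**Figure D1:**
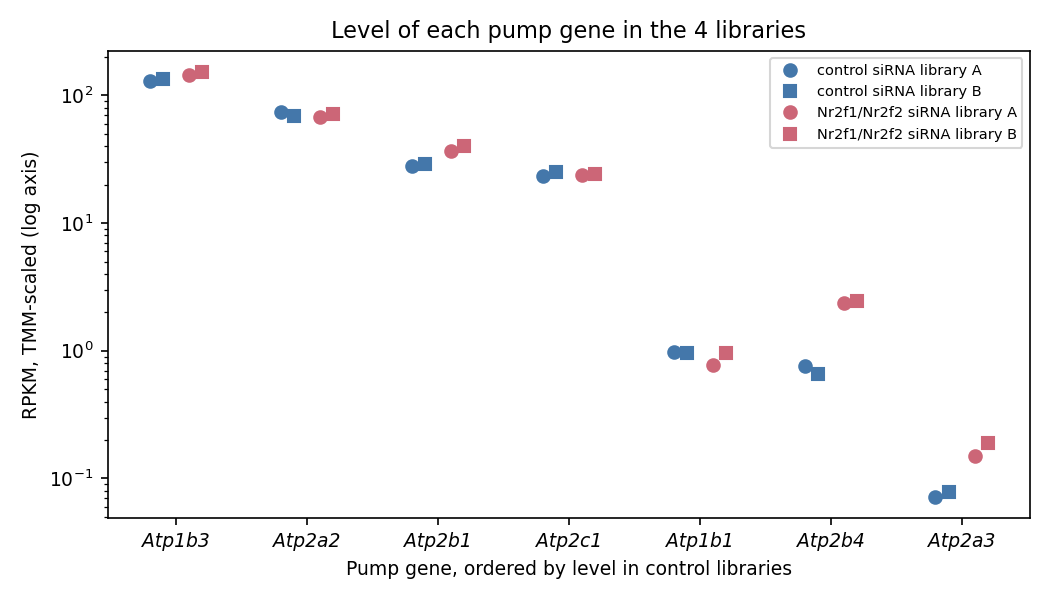
RPKM (log axis) of the 7 detected pump genes in each of the 4 libraries, 1 point per library, ordered by their control level. Both knockdown points of Atp2b4, at 2.36 and 2.47 RPKM, lie above its control points at 0.757 and 0.660 RPKM, and Atp2b2 is not drawn because it had 0 counts.

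The fit over all genes used the quasi-likelihood test of edgeR, with p adjusted by Benjamini-Hochberg, and kept 13018 genes with enough counts. The threshold was an adjusted p of 0.05, which 18.1% of them passed, 8.05% in the higher and 10% in the lower direction after knockdown. Among the 8 pump genes 7 were kept, 2 of them were past this threshold in the higher direction and 0 in the lower direction. The 2 were Atp2b4, whose choice rested on this contrast, so that nothing is read from its count, and Atp2b1. Without Atp2b4 the count was 1 higher and 0 lower of 6. None of the 7 kept pump genes was lower at an unadjusted p under 0.05 by edgeR, DESeq2 or limma-voom. With Atp2b4 included, 4 were higher at that level by edgeR and limma-voom, and 2 by DESeq2. Without Atp2b4, 3 of the 6 others were higher by edgeR. The share of all tested genes at that level was not counted, so nothing is read from these counts. The median log2 fold change of the 6 was 0.08, and 0.16 with Atp2b4, beside 0.01 over all tested genes. In 4 of the 6 the groups did not overlap, 3 of them with both knockdown libraries above and 1 with both below. Over all tested genes 58.6% did not overlap, 30.1% with the knockdown libraries above and 28.5% below. With library size alone in place of TMM scaling, 1381 of all genes were higher and 1009 lower, against 1048 and 1302 with TMM, and of the 6 Atp2b1 was again the one that passed.

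The sequences around the gene starts of Atp2b1 and Atp2b4 are shown because these are the only plasma membrane pump genes tested and the only members with a call. They are the RefSeq windows of build GRCr8, from 250 bases before the start to 50 after, with capitals marking CG dinucleotides. Atp2b1 is at chr7:35622211-35622510 on the plus strand and Atp2b4 at chr13:47758827-47759126 on the minus strand.
Atp2b1: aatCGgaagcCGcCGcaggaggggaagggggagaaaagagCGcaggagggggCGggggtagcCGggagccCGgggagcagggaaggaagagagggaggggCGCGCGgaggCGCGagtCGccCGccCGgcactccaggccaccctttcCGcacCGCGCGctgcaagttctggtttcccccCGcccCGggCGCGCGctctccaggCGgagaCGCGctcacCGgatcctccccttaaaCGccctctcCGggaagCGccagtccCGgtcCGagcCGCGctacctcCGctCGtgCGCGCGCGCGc
Atp2b4: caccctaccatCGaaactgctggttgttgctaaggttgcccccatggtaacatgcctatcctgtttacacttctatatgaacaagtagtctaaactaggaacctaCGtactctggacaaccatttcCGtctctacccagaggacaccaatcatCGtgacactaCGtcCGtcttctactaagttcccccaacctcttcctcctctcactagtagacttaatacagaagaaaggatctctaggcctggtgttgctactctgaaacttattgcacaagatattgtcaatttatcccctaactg
The Atp2b4 window holds 6 CG dinucleotides and 44.7% G or C, and the Atp2b1 window holds 42 and 74.3%. The median over 33469 rat windows was 7 and 51.7%. Of the 8 members 7 had a window, and the other 5 windows had 69.7% to 79.0% G or C, so that Atp2b4 was the lowest of the 7. COUP-TF proteins are known to bind repeats of the hexamer AGGTCA. Read on both strands, AGGTCA was in none of the 7 windows and in 16.2% of all windows, and the repeat AGGTCANAGGTCA was in none of the 7 and in 0.0538% of all. The deposited files place Atp2b4 on the plus strand of chromosome 13 in their own build, which no source used here names, so the RefSeq start may not be the one used by these transcripts.

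Atp2b4 and Atp2b1, the tested plasma membrane calcium pump genes, were both higher after Nr2f1/Nr2f2 siRNA, Atp2b4 by the larger factor and Atp2b1 by the larger amount. Both were chosen with results of these libraries known, so this is no independent evidence about the pump type. Atp2b4 (ENSRNOG00000003031, 50091430 to 50153823 on chromosome 13 in the files) encodes a widely expressed pump that also binds signalling partners. It had 167 counts in control library A, 120 in control library B, and 526 and 923 in the knockdown libraries A and B. Scaled for depth, these were 6.45 and 5.63 CPM in control and 20.2 and 21.1 CPM after knockdown.
Both knockdown libraries were more than 3-fold above both control libraries, and libraries of the same group lay close together. The fitted log2 fold change was 1.77 (SE 0.15), and the ratio of summed counts per scaled library size was 3.41 with an exact Clopper-Pearson 95% interval of 3.0 to 3.88 that covers counting error only. The authors' deposited table gives a log2 fold change of 1.76 for Atp2b4. By fitted log2 fold change, Atp2b4 was at rank 93 from the highest of 13018 tested genes. Atp2b4 was chosen for this rise, so the interval, the rank and the authors' value from the same libraries only describe it and give it no support. No gene in the files overlaps Atp2b4. In bulk libraries, more cells of a kind and more RNA per cell cannot be told apart. Of the Schwann cell markers 1 was higher and 1 lower. The neuron list summed to 86.6 and 88.2 CPM in control against 114.9 and 95.5 CPM after knockdown. Most of this sum was Tubb3, at 78.4 CPM in control and 97.4 CPM after knockdown as group means (adjusted p = 0.0421, log2 fold change 0.31). Slc17a6, the other tested neuron marker, did not pass (adjusted p = 0.424, log2 fold change -0.23). The endothelial list, without Pecam1, which was not found by symbol, summed to 13.6 CPM in each control library. After knockdown the sum was 15.5 and 17.2 CPM. Vwf was higher (adjusted p = 0.00762, log2 fold change 0.69), and Tek, the other tested endothelial marker, did not pass (adjusted p = 0.166, log2 fold change -0.44). Of the fibroblast list, Postn was higher (adjusted p = 0.000205, log2 fold change 1.24) and Pdgfrl lower (adjusted p = 0.0130, log2 fold change -0.52), and Pdgfra did not pass (adjusted p = 0.0505, log2 fold change 0.88). The abundant Col1a1 (adjusted p = 0.87, log2 fold change -0.02) and Col3a1 (adjusted p = 0.0611, log2 fold change 0.20) did not pass either. The part of these shifts in the pump values was not tested.

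Its nearest tested neighbours did not pass the test. Ppp1r15b, which encodes a regulator of the eIF2alpha phosphatase, ends 150469 bases away and was at 127.1 ± 4.79 CPM in control and 126.4 ± 2.06 CPM after knockdown (mean ± SD, n = 2). Its log2 fold change was -0.01 (adjusted p = 0.952, SE 0.08). Zc3h11a, the gene of an RNA-export zinc finger protein, starts 42219 bases away on the other side and had a log2 fold change of 0.07 (adjusted p = 0.568, SE 0.07).

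Atp2b1 encodes the main housekeeping calcium pump of the plasma membrane. The gene (ENSRNOG00000004026) lies on chromosome 7 from 41114697 to 41220579 in the files. It was at 122.6 and 127.8 CPM in control and 161.2 and 176.9 CPM after knockdown, so both knockdown libraries were above both control libraries. The log2 fold change was 0.43 (adjusted p = 0.00271, SE 0.08), a 1.35-fold rise. It kept this call in each of 12 alternative settings, with adjusted p from 5.4e-05 to 0.0339 and log2 fold changes from 0.36 to 0.50. The authors' deposited table, from the same libraries, gives 0.43 with an adjusted p of 5.06e-05. This value is no independent evidence.

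Summed per length, the plasma membrane pumps were at 28.8 and 29.9 RPKM in control and 39.3 and 43.0 RPKM after knockdown. The ratio of the group means was 1.40. Atp2b4 held 2.62% and 2.20% of this sum in control libraries and 6.02% and 5.75% after knockdown. Atp2b1 held 94.0% to 97.7% per library. As group means, Atp2b1 went from 28.7 RPKM in control to 38.7 RPKM after knockdown, and Atp2b4 from 0.708 to 2.42 RPKM. Most of the added transcript was therefore Atp2b1. The remaining genes of the type were nearly silent, with 0 counts for Atp2b2 and 1 to 5 counts per library for Atp2b3. The RPKM of Atp2b1 was 37.1 and 44.3 times that of Atp2b4 in control libraries and 15.6 and 16.4 times after knockdown. No test is given for these shares, since the choice of Atp2b4 fixes their direction.

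**Figure D2:**
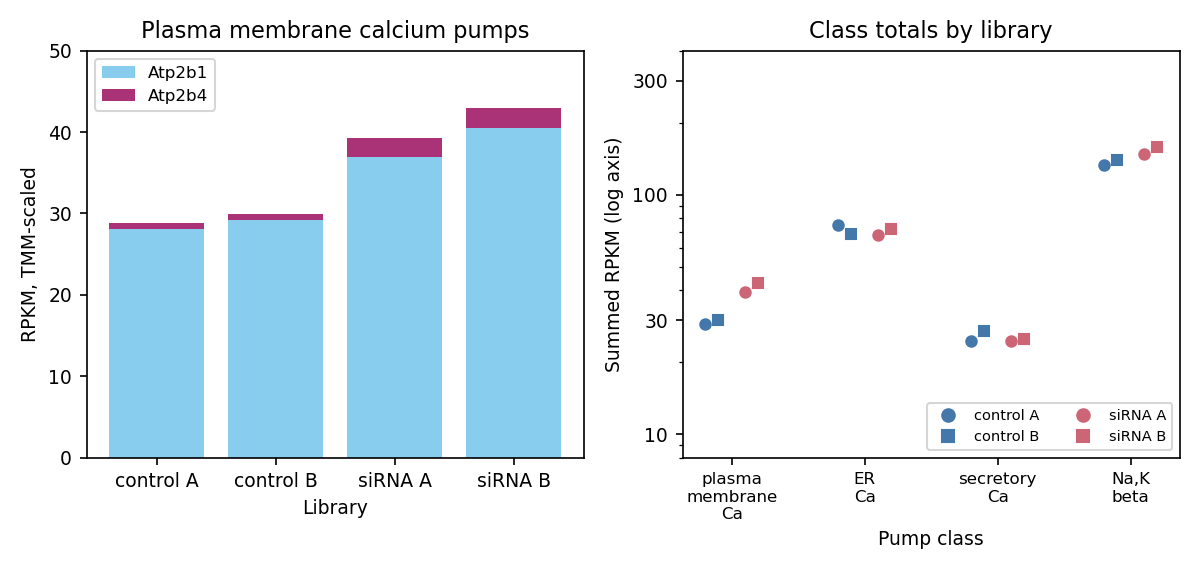
Left, RPKM of Atp2b1 and Atp2b4 stacked for each library, on an axis from 0; right, RPKM summed over each pump class (log axis), 1 point per library. The plasma membrane class is at 28.8 and 29.9 RPKM in control and 39.3 and 43.0 RPKM after knockdown, while the endoplasmic reticulum (ER) points of the groups overlap.

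No endoplasmic reticulum calcium pump gene passed the test. Atp2a2 (ENSRNOG00000001285, chromosome 12 from 39553903 to 39603326), the widely expressed pump of the store, was at 494.9 and 455.2 CPM in control and 447.6 and 473.0 CPM after knockdown. The groups overlapped, and the log2 fold change was -0.05 (adjusted p = 0.726, SE 0.07), with a sign that changed with scaling by library size alone (0.0071) and without control library A (0.013). Atp2a2 made up 99.4% to 99.9% of the summed RPKM of this type per library.
Atp2a3 (ENSRNOG00000017912, chromosome 10 from 59529785 to 59560433) encodes a pump known from blood and epithelial cells. It had 9 and 8 counts in control and 19 and 40 counts after knockdown, or 0.348 and 0.375 CPM against 0.728 and 0.914 CPM. Both knockdown libraries were above both control libraries, but the log2 fold change of 1.22 (SE 0.53) did not pass the test (adjusted p = 0.135). The ratio of summed counts per scaled library size was 2.34, with an exact 95% interval of 1.35 to 4.29 for counting error only. Atp2a3 shares 21029 bases with Itgae on the same strand, and Itgae, an integrin gene, had 152 to 290 counts per library and a log2 fold change of 0.06 (adjusted p = 0.868). No source used here says how reads in the shared stretch were counted. The leukocyte list was near 0, with a summed level of 1.78 and 2.49 CPM in control and 2.18 and 3.02 CPM after knockdown over 8 markers, of which Ptprc and Cx3cr1 were at 0. Its part in the Atp2a3 values was not tested. Atp2a1, the pump of fast skeletal muscle, had 0 to 5 counts per library and was not tested.

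Atp2c1, the main secretory pathway pump, showed no change that passed the test. The gene (ENSRNOG00000013305, chromosome 8 from 113955647 to 114013623) was at 68.0 and 73.9 CPM in control and 69.4 and 71.4 CPM after knockdown. The knockdown values lay between the control values, and the log2 fold change was -0.01 (adjusted p = 0.95, SE 0.09), with a sign that changed in 4 of 12 alternative settings. Its paralog Atp2c2, best known from secretory epithelia, fell from 4.36 ± 0.864 to 1.96 ± 0.258 CPM (adjusted p = 0.00897, log2 fold change -1.16, SE 0.26). The call on Atp2c2 was lost without control library B (adjusted p = 0.0667) and without knockdown library B (0.0620), in 12 settings whose adjusted p ran from 0.00536 to 0.0667. Atp2c1 held 94.9% and 93.9% of the summed RPKM of both genes in control libraries and 97.1% and 97.6% after knockdown.

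No sodium pump beta subunit gene passed the test. Atp1b3 (ENSRNOG00000011501, chromosome 8 from 104190032 to 104221342), the main beta subunit gene of these cells, was at 235.4 and 246.1 CPM in control and 261.7 and 277.3 CPM after knockdown. Both knockdown libraries were higher than both control libraries, by a log2 fold change of 0.16 (SE 0.07) with an adjusted p = 0.150. The authors' deposited table gives 0.16 with an adjusted p of 0.189.
Atp1b1 (ENSRNOG00000002934, chromosome 13 from 82737159 to 82758004), the common beta subunit gene of kidney and many other tissues, was low here. It had 67 and 55 counts in control and 54 and 111 after knockdown, or 2.59 and 2.58 CPM against 2.07 and 2.54 CPM. The knockdown values were slightly below the control values, by less than the gap between the knockdown libraries, with a log2 fold change of -0.14 (adjusted p = 0.776, SE 0.27). Atp1b1 shares 185 bases with Nme7 on the other strand. Atp1b2, the beta subunit gene known from glia, was at 10.3 ± 1.22 CPM in control and 13.5 ± 1.54 CPM after knockdown (adjusted p = 0.0815).

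**Figure D3:**
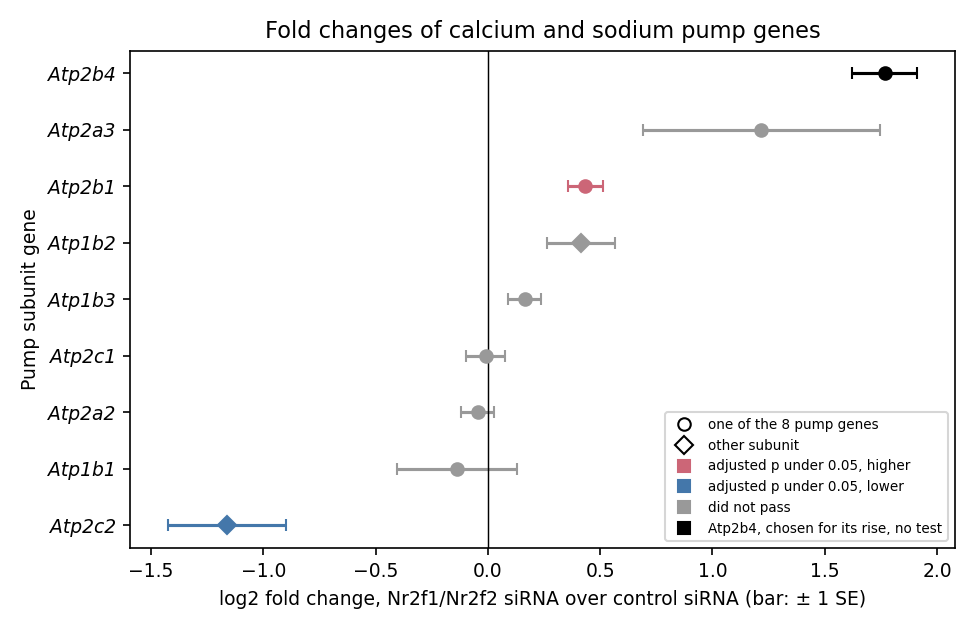
Fitted log2 fold change of the tested pump genes described here, siRNA over control, with bars of ± 1 SE, circles for 7 of the 8 pump genes and diamonds for Atp1b2 and Atp2c2, coloured by the test over all genes. Atp2b4 at 1.77 is drawn in black with no test, Atp2b1 at 0.43 is higher, and Atp2c2 at -1.16 is lower.

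Genes that work with the pumps were called in both directions. In total, 9 lists of other pump subunits, calcium and sodium handling genes and other P-type ATPases held 139 genes, of which 136 were in the table and 100 were tested. Of the 100, 12 were higher and 12 were lower, or 24 calls, against 18.1% called over all tested genes. Their median log2 fold change was 0.01, as over all tested genes. With library size alone the split was 15 higher and 9 lower. The number of higher genes dropped without control library A, and the number of lower genes without control library B or knockdown library B. Over all tested genes both numbers also dropped when any of these libraries was left out.
Of 11 tested pump partners and regulators, 1 fell and 0 rose by edgeR, DESeq2 or limma-voom, and their median was -0.0048. At an unadjusted p under 0.05, 1 was higher in each, a count from which nothing is read, since the share of all tested genes was not counted. The gene that fell was Nkain4, which belongs to a family named for its interaction with the sodium pump, from 56.8 ± 3.06 to 30.4 ± 0.849 CPM (adjusted p = 5.67e-05, log2 fold change -0.90, SE 0.09). Bsg and Nptn, whose immunoglobulin-domain proteins are subunits of the plasma membrane calcium pumps, did not pass, with log2 fold changes of -0.06 (SE 0.09) and 0.13 (SE 0.10). Both signs turned when 1 library was left out, to 0.052 for Bsg without control library B and to -0.030 for Nptn without knockdown library B.

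Of 24 tested genes in the lists of store release and entry, mitochondrial uptake and sodium/calcium exchange, 3 were called, or 12.5%, beside 18.1% over all tested genes. Of 12 tested genes of store release and store-operated entry, 1 rose and 0 fell by each of the 3 tools. At an unadjusted p under 0.05, 4 were higher and 2 lower by edgeR. The share of all tested genes at that level was not counted, so nothing is read from the unadjusted counts of these lists. The gene that rose by each tool was Itpr1, an inositol trisphosphate receptor, at 32.2 and 29.6 CPM in control and 51.1 and 47.7 CPM after knockdown (adjusted p = 0.000581, log2 fold change 0.67, SE 0.10). Itpr3, of the same family, was far more abundant, at 108.8 RPKM against 3.11 RPKM for Itpr1 as control means. Itpr3 did not pass (adjusted p = 0.138, log2 fold change -0.16, SE 0.07). The list's median was 0.30. Of 7 mitochondrial calcium uptake genes, 1 rose and 0 fell by each tool, with 1 higher and 0 lower at an unadjusted p under 0.05. The list's median was -0.03. Mcu, the pore of the uniporter, rose from 9.79 ± 0.345 to 14.3 ± 0.601 CPM (adjusted p = 0.0173, log2 fold change 0.54, SE 0.14). Its call did not hold without control library A (adjusted p = 0.10), knockdown library A (0.0793) or knockdown library B (0.0544).
Among 5 tested sodium/calcium exchangers, 1 rose and 0 fell by each tool, and the median was 0.21. At an unadjusted p under 0.05, 0 were lower by each tool, while 2 were higher by edgeR and limma-voom and 1 by DESeq2. Slc8b1, the mitochondrial exchanger, rose from 14.2 ± 0.131 to 20.7 ± 2.56 CPM (adjusted p = 0.0139, log2 fold change 0.53, SE 0.13). This call did not hold without control library A (adjusted p = 0.0561) or knockdown library A (0.106).

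Genes of proteins that hold calcium inside the endoplasmic reticulum were also called in both directions. Of 17 tested luminal calcium-binding genes, 4 fell and 1 rose (5 and 0 with DESeq2), with a median log2 fold change of -0.09. Beside this, 10% of all tested genes were lower and 8.05% higher. Rcn1, which encodes the EF-hand protein reticulocalbin, was at 208.1 and 222.2 CPM in control and 84.0 and 78.7 CPM after knockdown (adjusted p = 4.41e-07, log2 fold change -1.40, SE 0.08). The chaperone gene Hyou1 fell by 0.52 on the log2 scale (adjusted p = 0.00067, SE 0.08), and Rcn3, of the same family as Rcn1, fell by 0.35 (adjusted p = 0.0126, SE 0.08). Pdia4, a disulfide isomerase gene named after its values were seen, fell by 0.25 (adjusted p = 0.0246, SE 0.07). Casq2, the calsequestrin of heart muscle, rose from 1.97 ± 0.329 to 3.85 ± 0.787 CPM (adjusted p = 0.0230).
Of these, the calls on Rcn3, Casq2 and Pdia4 were lost when single libraries were left out. Rcn3 lost its call without control library B (adjusted p = 0.0547) or knockdown library B (0.153), and Casq2 without control library A (0.170), without knockdown library B (0.211) or with DESeq2 (0.0689). Pdia4 lost its call without control library A (adjusted p = 0.0673), knockdown library A (0.130) or knockdown library B (0.175), and with library size alone (0.0610). Myh2 of the muscle list was not found by symbol among the counted genes. The other muscle markers had a summed level of 0.232 to 0.656 CPM in control and 0.525 to 0.651 CPM after knockdown, with Actn2, Myog and Myod1 at 0. Their part in the Casq2 values was not tested.

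Calcium-dependent enzymes were called in both directions. Of 16 tested genes of calcineurin and calmodulin kinases, 2 rose and 2 fell, beside 18.1% called over all tested genes, with a median of -0.02. Rcan1, whose protein regulates calcineurin and whose promoter is a known calcineurin target, was at 54.7 and 54.3 CPM in control and 77.9 and 75.3 CPM after knockdown (adjusted p = 0.00173, log2 fold change 0.49, SE 0.08). Camk2d fell from 138.5 ± 2.93 to 91.2 ± 10.3 CPM (adjusted p = 0.000708, log2 fold change -0.60, SE 0.09). Camk1d rose by 0.41 (adjusted p = 0.0218, SE 0.11), and Camk4, at 30 and 28 counts in control and 10 and 9 after knockdown, fell by 2.16 on the log2 scale (adjusted p = 0.0114, SE 0.51). Camk1d lost its call without control library B (adjusted p = 0.167) or knockdown library B (0.135), and Camk4 without control library A (0.0585), control library B (0.0652) or knockdown library B (0.114).

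Of 12 tested ion transporters that use the sodium gradient or share a family with such transporters, 3 rose and 2 fell, with a median of 0.16. Over all tested genes 18.1% were called, 8.05% higher and 10% lower. Slc12a2, the sodium-potassium-chloride cotransporter NKCC1, was at 47.3 and 44.6 CPM in control and 74.0 and 82.4 CPM after knockdown (adjusted p = 0.000151, log2 fold change 0.77, SE 0.09). Its relative Slc12a7, a potassium-chloride cotransporter that carries no sodium, fell from 253.4 ± 5.98 to 186.4 ± 7.41 CPM (adjusted p = 0.00147, log2 fold change -0.44, SE 0.07). The sodium/proton exchanger gene Slc9a8 rose by 0.51 (adjusted p = 0.00569, SE 0.11) and the sodium-phosphate cotransporter gene Slc20a2 by 0.37 (adjusted p = 0.0106, SE 0.09). Slc20a2 lost its call without control library A (adjusted p = 0.0692) or knockdown library B (0.131). The other gene that fell was Slc9a9, named after its values were seen (-0.47, SE 0.14, adjusted p = 0.0367). Its call was lost without control library B (adjusted p = 0.180), knockdown library A (0.155) or knockdown library B (0.0678), with upper-quartile scaling (0.0522), with library size alone (0.0612), with DESeq2 (0.0638) and with limma-voom (0.0538).

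The list of more distant P-type ATPases, which also holds the flippase accessory subunit gene Tmem30a, had 2 genes higher and 1 lower of 16 tested, beside 18.1% called over all tested genes, with a median of 0.15. All 3 belong to the lipid flippases. Atp8b3 was at 32 and 38 counts in control and 111 and 193 counts after knockdown (adjusted p = 0.00222, log2 fold change 1.55, SE 0.28). Atp10d rose from 6.42 ± 0.263 to 13.5 ± 1.49 CPM (adjusted p = 0.000708, log2 fold change 1.08, SE 0.16). Atp10b fell from 156.7 ± 25.2 to 106.1 ± 1.51 CPM (adjusted p = 0.00311, log2 fold change -0.56, SE 0.10).

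**Figure D4:**
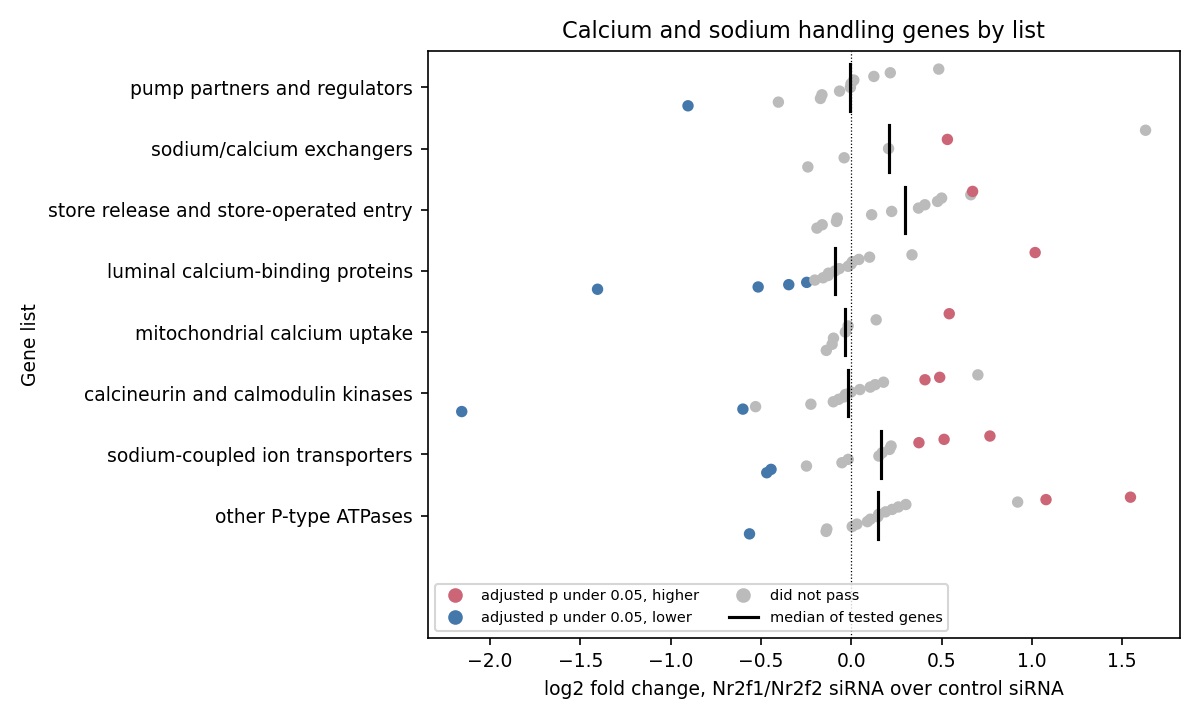
Fitted log2 fold change of each tested gene in 8 of the 9 lists, 1 point per gene, coloured by the test over all genes, with a black line at each list's median. Medians lie between -0.09 for luminal calcium-binding proteins and 0.30 for store release and entry, and each list drawn holds at least 1 called gene.

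The genes whose pattern was most like that of Atp2b4 were sought among 9449 protein-coding genes with a symbol and at least 5 CPM in the higher group. Likeness was the root-mean-square difference, over the 4 libraries, of log2 CPM centred on each gene's own mean. Fam107a, which encodes an actin-associated protein, was closest (0.07), at 3.83 and 3.33 CPM in control and 12.6 and 14.2 CPM after knockdown. The tight junction gene Cldn14 (0.19), Chadl (0.19), Slitrk6 (0.20) and Klhl30 (0.20) followed, with log2 fold changes of 1.59, 1.54, 1.47 and 1.46. Over so few libraries this measure mainly picks genes with a rise of the same size, and none of the 5 lies on chromosome 13.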

How the data were processed

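The authors deposited raw read counts for each Ensembl gene; HISAT2, featureCounts 1.5.0-p3 and DESeq2 1.20.0 are named in the submitters' processing notes with no stated role. No source used here gives the genome build, annotation release or strand setting. The deposited comparison table adds, by the authors, a size-factor-scaled signal and FPKM per library, log2 fold changes and p-values; its FPKM served as an alternative for the pump shares, and its other 8 per-library columns were not used. The Atp2a1 gene model is only 543 bases long, so its length-scaled level is uncertain.

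Counts were fitted with edgeR 4.0.16 in R 4.3.3: filterByExpr, TMM scaling, an intercept and the group, robust quasi-likelihood dispersion and Benjamini-Hochberg adjustment over all 13018 tested genes (threshold 0.05; common biological coefficient of variation 0.111). A standard error is the log2 fold change over the square root of the F statistic. RPKM divides TMM-scaled CPM by the deposited gene length. Libraries of a group differed by more than counting noise (chi-square 12.3 per gene in each group). A count of 3 corresponds to 0.0685 to 0.141 CPM per library; no molecular identifiers are described, so intervals cover counting error only. Alternatives used DESeq2 1.42.0, limma 3.58.1, other scalings and filters, and left-out libraries. The steps were tested on simulated data. Promoter windows came from RefSeq.

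The column names give the group but not the replicate number of the titles. The members and gene lists were chosen with earlier results of these data known. Genes named are the members, the siRNA targets, neighbours and overlapping genes, and the 5 genes most like Atp2b4. Up to 4 called genes with the smallest adjusted p per list are also named (the 2 most abundant where none passed). Atp1b2, Bsg, Nptn, Pdia4, Slc9a9 and Itpr3 were added after their values were seen. Some results that the rule would name are not reported here.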

Additional observations from a re-analysis of the deposited data

How the results depend on the processing

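No paired analysis was possible because the numbers in the column names do not match the replicate numbers of the titles, and the groups share only 1 of them, the number 3 of both libraries A. Across 12 alternatives Atp2b1 kept its call and no member of the chosen pump gene set was lower. Atp2c2, a calcium pump gene outside this set, was lower in the main fit. Over 45 named genes and these alternatives, 486 values kept direction and call, 39 lost the call and 14 changed sign. The sign changes were in genes that did not pass. With upper-quartile scaling, Atp2c1 was at 0.023 and Ppp1r15b at 0.025 on the log2 scale. With library size alone, Atp2a2 was at 0.0071, Atp2c1 at 0.041 and Ppp1r15b at 0.044. With 1 library left out, values ranged from -0.11 to 0.013 for Atp2a2, -0.074 to 0.042 for Atp2c1, -0.055 to 0.027 for Ppp1r15b, -0.056 to 0.19 for Itgae, -0.18 to 0.052 for Bsg and -0.030 to 0.26 for Nptn. With 1 library left out, 7 to 12 listed genes were higher and 6 to 10 lower; a lone library was then assumed to vary like the other group. Over all genes 1353 to 1813 then passed, against 2350. The edgeR setting with the older dispersion (2501 genes) was chosen after seeing the data. The authors' FPKM gave Atp2b4 the same shares. Precision is limited by 2 libraries per group and by few counts for Atp2a3 and Atp1b1.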
